A study of Mus musculus with 19 samples.

Results

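Of the 55487 genes in the count table, 9 were examined here: the signalling chains Il6st (gp130), Osmr and Lifr, the transcription factor Stat3, the suppressors Socs1, Socs2 and Socs3, and the transcription factors Cebpb and Cebpd. They were chosen by name, with earlier results of these data known, and matched from their Ensembl identifiers to mouse symbols. All 9 were among the 15138 genes that passed the filter on low counts. The samples were hepatic stellate cells (HSCs), the vitamin A-storing cells of the liver that turn into matrix-producing myofibroblasts after injury and also when plated. They came from healthy, untreated male Balb/c mice of 23 to 24 weeks and were sorted by their ultraviolet fluorescence. Uncultured cells were collected at 0 h (2 samples), and cells on collagen-coated plastic in DMEM with 10% serum were collected at 3, 6, 12, 18 and 96 h (3 samples each) and at 24 h (2 samples). No sample carried a transgene or a deletion, and each stood for a pair of technical repeats that the counts do not separate.

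Cytokines of the interleukin-6 family, among them interleukin-6, interleukin-11, leukemia inhibitory factor and oncostatin M, signal through the shared chain gp130, which pairs with itself or with a partner chain such as OSMR or LIFR. Janus kinases bound to these chains phosphorylate STAT3, which then enters the nucleus and switches on genes such as Socs3, whose protein binds gp130 and its kinases and limits the signal. C/EBPβ and C/EBPδ are leucine zipper transcription factors best known in the liver for the acute phase response and in other cells for inflammation and differentiation. STAT3 activity depends on phosphorylation, which counts of transcripts do not measure.

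Library totals ranged from 2073171 to 7690892 counts (median 4954915), so that 3 counts, taken as the smallest level the depth can show, were worth 0.385 to 1.503 CPM. CPM here are counts relative to the library total after TMM scaling. Reads came from transcript 3′ ends and were not divided by length, so levels are compared within a gene and not between genes. Replicates of one time correlated less at 0 h (Pearson r = 0.768 across genes that passed the filter) than at the other times (0.802 to 0.868). The sum of 10 stellate cell markers was 13312 to 16608 CPM at 0 h and 849 to 1017 CPM at 96 h, and 10 of the 10 were called lower at 12 h than at 0 h. A sum of 6 markers of activated stellate cells was 2270 to 2949 CPM at 0 h and 5245 to 7287 CPM at 96 h. Of these 6, 5 were called higher and 1 lower at 96 h than at 0 h (5.83% and 5.03% of all genes). Hepatocyte markers (7 genes) summed to 3077 to 6734 CPM at 0 h, 371 to 1090 CPM at 3 h and at most 328 CPM from 6 h on, and 9 markers of Kupffer cells and leukocytes to 431 to 490 CPM at 0 h, 248 to 453 CPM at 3 h and at most 60.2 CPM from 6 h on. Of those 9, between 4 and 7 were at 0 counts in every library of each time from 6 h on.

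Each culture time was compared with 0 h to ask which of the genes change as HSCs settle in culture, and culture times were compared with each other to ask which changes last. All 6 comparisons with 0 h share the same 2 uncultured samples. Calls required an adjusted p below 0.1 in edgeR's quasi-likelihood test, taken over all 15138 genes, together with a fold change above 2. At 1 or more times, 8 of the 9 genes were called, 3 higher and 5 lower, where 26.9% of all tested genes were called, 12.8% higher and 14.7% lower. Because the 9 genes were chosen with earlier results of these data known, such shares, here and below, are context and no test of the set. Higher were Osmr from 3 to 18 h, Stat3 at 3 h and Socs2 at 12 h. Lower were Socs3 from 6 h on, Lifr from 12 h on, Cebpd from 18 h on, Socs1 at 18 h and Il6st at 96 h. Cebpb was not called against 0 h at any time in this fit.

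After 3 h in culture 2 genes were higher and 0 lower, where 5.58% of all genes tested were called, 4.19% higher and 1.39% lower. After 6 h there was 1 higher and 1 lower (11.3% of all genes, 6.98% higher and 4.35% lower), and after 12 h 2 higher and 2 lower (17.7%, 8.6% and 9.1%). Samples of 18 h had 1 higher and 4 lower (15.9%, 7.64% and 8.21%). Those of 24 h had 0 higher and 3 lower (9.51%, 5.65% and 3.86%), and those of 96 h 0 higher and 4 lower (10.9%, 5.83% and 5.03%). The median log2 fold change of the 9 genes went from 0.58 at 3 h to -1.13 at 96 h, beside 0 and 0.07 over all genes tested. Among the 6 culture times alone, without 0 h, 7 of the 9 genes differed (23.7% of all genes), the exceptions being Socs1 (edgeR adjusted p = 0.256) and Socs2 (edgeR adjusted p = 0.535).

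**Figure D1:**
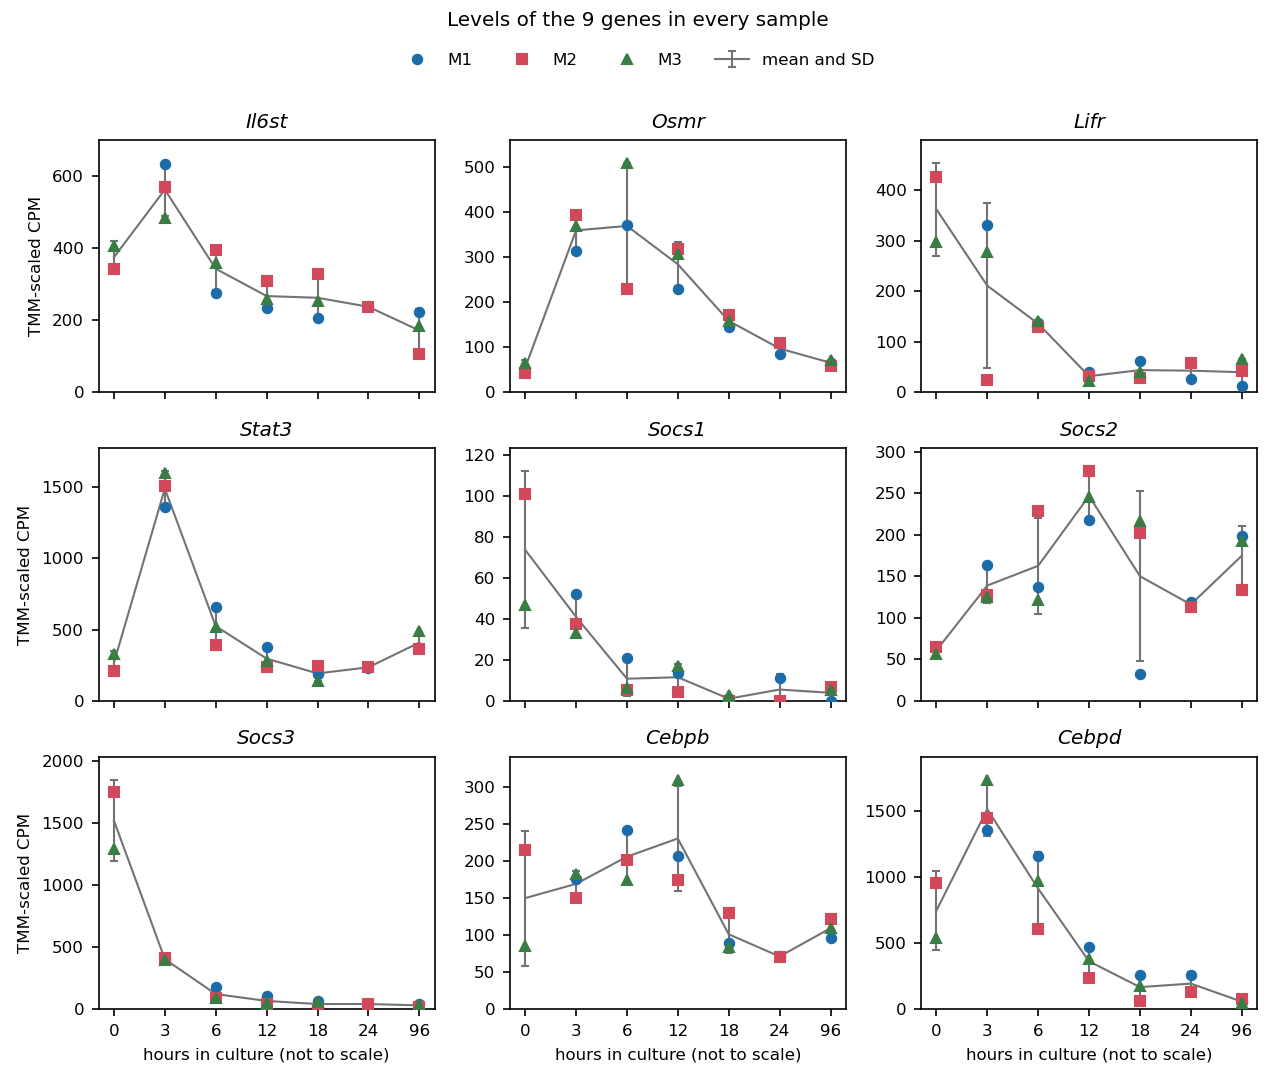
TMM-scaled CPM of the 9 genes (vertical axes from 0, 1 scale per gene) by hours in culture, where each point is a sample, its shape and colour the number M1 to M3, and the line with bars the mean and SD. Stat3, Il6st and Cebpd have their highest mean at 3 h, Osmr stays above its 0 h samples from 3 to 24 h, and Socs3, Socs1 and Lifr have their highest mean at 0 h.

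Osmr (chr15:6813577-6874969 of GRCm38, minus strand), the chain that pairs with gp130 in the oncostatin M receptor, was the receptor gene that rose. Values per sample are given in the order M1, M2 and M3 of the labels, with no M1 at 0 h and no M3 at 24 h. By the labels M1 and M3 share one isolation date and M2 has another. The uncultured samples had 42.8 and 66.1 CPM. Values were 315, 394 and 370.2 CPM at 3 h and 372, 229 and 508 CPM at 6 h. The culture samples of 3 and 6 h thus all lay above both uncultured ones. At 12 h the samples held 229, 318 and 307 CPM and at 18 h 146, 172 and 159 CPM. The later samples had 85.3 and 109 CPM at 24 h and 66.1, 58.6 and 72.5 CPM at 96 h. Osmr therefore declined after 12 h, with no overlap between 12, 18, 24 and 96 h, and at 96 h its samples lay in or just above the range of 0 h.

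The log2 fold change of Osmr against 0 h was 2.73 ± 0.32 (SE) at 3 h (edgeR adjusted p = 7.6e-05) and 2.77 ± 0.32 at 6 h (edgeR adjusted p = 3.4e-05). It was still 1.55 ± 0.30 at 18 h (edgeR adjusted p = 0.0024). At 24 h it was 0.84 ± 0.32 and not called (edgeR adjusted p = 0.142), although with the number M1 to M3 as a block it was 1.03 and called (edgeR adjusted p = 0.0617), and with the isolation date as a block it was 0.86 and not called (edgeR adjusted p = 0.150). From 6 h to 96 h Osmr fell by 2.49 ± 0.27 on the log2 scale (edgeR adjusted p = 1.2e-05), one of 2 members lower in that comparison (7.46% of all genes were lower). Within M2 and M3, which each have an uncultured sample, the log2 change at 3 h was 3.20 and 2.49. Each of its 4 calls against 0 h held when any of the 19 libraries was left out.

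Lifr (chr15:7090614-7197489, plus strand), the chain that pairs with gp130 in the leukemia inhibitory factor receptor and, with that factor's relatives, in several other receptors, went the other way. Uncultured samples had 426 and 297 CPM, and those of 3 h 331, 24.7 and 276 CPM. The single low value at 3 h came from M2, and its own 0 h sample was the higher of the pair. All samples of 6 h, at 137, 130 and 140.3 CPM, lay below both uncultured samples, and from 12 to 96 h each of the 11 samples lay between 12.9 and 65.1 CPM. In order of means, 0, 3 and 6 h did not differ beyond the ranges of neighbouring times, and neither did 18, 24, 96 and 12 h, but the lowest sample of 6 h was above every later one.

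Lifr fell by 3.50 ± 0.77 (log2, SE) at 12 h (edgeR adjusted p = 0.0053) and was -3.18 ± 0.76 at 96 h (edgeR adjusted p = 0.014). The change at 6 h, -1.42 ± 0.74, was not called (edgeR adjusted p = 0.270). The call at 24 h, at -3.08 ± 0.89, was lost without the 0 h sample M2 or without either sample of 24 h, with adjusted p up to 0.317. Hepatocytes also express Lifr. Beside its fall stood that of the hepatocyte markers given above, 6 of 7 of which were called lower at 12 h, and a sum of 7 endothelial markers of 542 to 754 CPM at 0 h, 788 to 2520 CPM at 3 h and 126 to 611 CPM at 12 h. None of the 7 endothelial markers was called at 12 h, and the part of other cells in the fall of Lifr was not tested. In these bulk samples, fewer cells of a type and less RNA per cell cannot be told apart.

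Il6st (chr13:112464070-112510086, plus strand), which encodes gp130 itself, moved least of the receptor genes. Its mean was highest at 3 h, at 563 ± 74.1 CPM (SD, n = 3), with samples at 633, 570.1 and 486 CPM, all above the 343 and 408 CPM of 0 h. It was lowest at 96 h, at 224, 106 and 185 CPM, all below both uncultured samples and both samples of 24 h. Neighbouring times between these extremes, from 0 and 6 h to 12, 18 and 24 h, overlapped. The difference at 3 h was 0.58 ± 0.28 (log2, SE) and not called (edgeR adjusted p = 0.340). At 96 h Il6st fell by 1.13 ± 0.27 (edgeR adjusted p = 0.014), close to the 2-fold limit. That call was lost without the 0 h sample M3, without the 96 h sample M2, and with scaling by library size, where the log2 change was -0.99.

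Stat3 (chr11:100885098-100939540, minus strand), the transcription factor downstream of gp130, was called higher at 3 h and at no later time. It stood at 208 and 325 CPM at 0 h and at 1359, 1509 and 1599.7 CPM at 3 h. At 6 h the samples held 658, 394 and 519.7 CPM. Values of 375, 236 and 276 CPM at 12 h and 189, 246 and 140.4 CPM at 18 h followed. The lowest sample of 3 h was thus more than any sample of any other time. The 24 h samples, at 232 and 237 CPM, lay inside the range of 0 h, and those of 96 h, at 369.8, 362 and 492 CPM, above it. The order of means was 3, 6, 96, 12, 0, 24 and 18 h, and only the step from 3 to 6 h had no overlap.

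Stat3 was higher than at 0 h by 2.48 ± 0.31 (log2, SE) at 3 h (edgeR adjusted p = 1.2e-04), a 5.59-fold difference. From 3 to 6 h it fell by 1.51 ± 0.25 (edgeR adjusted p = 0.0030), the 1 member called in that step (1.99% of all genes were lower). At 6 h it was still higher by 0.97 ± 0.29 (edgeR adjusted p = 0.041), just under the 2-fold limit, and with scaling by library size it was 1.03 and called (edgeR adjusted p = 0.039). Values at 96 h differed from 0 h by 0.62 ± 0.28 and were not called (edgeR adjusted p = 0.220). The calls at 3 h and from 3 to 6 h held in each of the 19 fits without 1 library. Stat3 overlaps Stat5a on the other strand of chromosome 11, and Stat5a had 1984 counts over all samples against 43349 for Stat3.

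**Figure D2:**
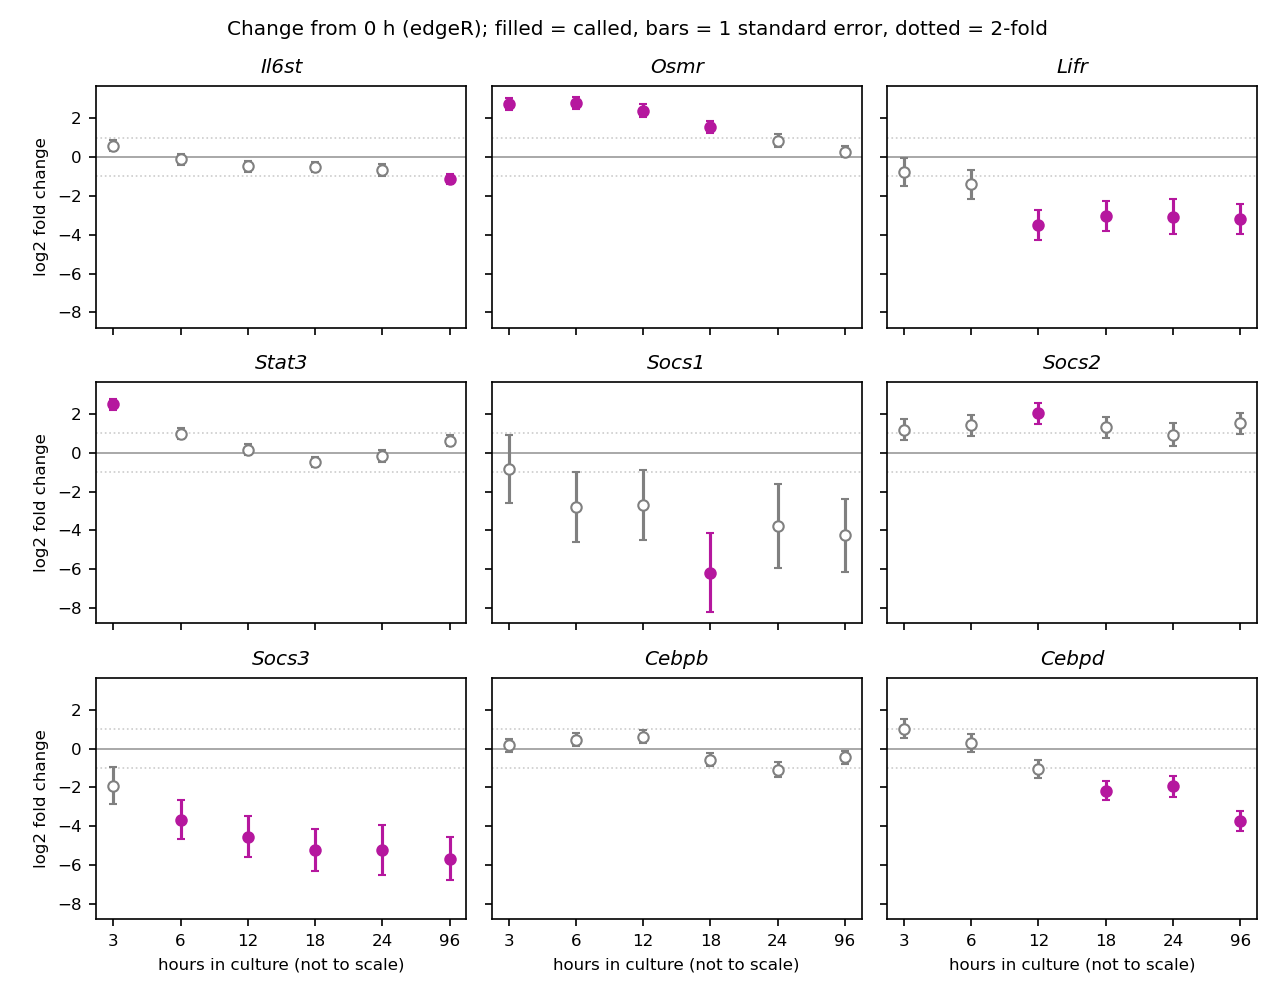
Log2 fold change of the 9 genes against 0 h in edgeR (vertical axis, bars 1 SE) by hours in culture, with called values filled and the 2-fold limits dotted. Osmr is filled above 0 from 3 to 18 h and Stat3 only at 3 h, while Socs3, Lifr and Cebpd are filled below 0 at the later times.

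Socs3 (chr11:117966079-117970047, minus strand), the feedback inhibitor that STAT3 switches on and that binds gp130, fell from the first hours, and its highest and lowest mean differed 50.7-fold. It held 1749.9 and 1284 CPM at 0 h and 406, 407 and 394 CPM at 3 h. At 6 h the values were 181, 92.9 and 88.3 CPM and at 12 h 105, 44.6 and 47.2 CPM. The samples of 0, 3 and 6 h were separated from each other, while those of 6 and 12 h overlapped. At 18 h, 2 samples had 68.2 and 53.6 CPM and the sample M2 had 0 counts, where 3 counts would be 0.526 CPM. The 24 h samples had 38.6 and 43.0 CPM and those of 96 h 40.6, 17.3 and 31.8 CPM, in overlapping ranges with 18 h.

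Against 0 h, the log2 fold change of Socs3 was -1.92 ± 0.96 (SE) at 3 h, not called (edgeR adjusted p = 0.370). It was -3.65 ± 1.01 at 6 h (edgeR adjusted p = 0.030), -4.53 ± 1.04 at 12 h (edgeR adjusted p = 0.0071) and -5.67 ± 1.095 at 96 h (edgeR adjusted p = 0.0029). The sample at 0 counts widened the spread estimate: without it the value at 3 h was -1.93 and called (edgeR adjusted p = 0.011). The call at 6 h was lost without the 0 h sample M2 or the 6 h sample M3, with adjusted p up to 0.118, and that at 24 h without either 24 h sample. The 18 h call, -5.23 ± 1.07 (edgeR adjusted p = 0.0036), was lost in a fit of 0 and 18 h alone (edgeR adjusted p = 0.109). Within M2 and M3 the log2 changes were -2.10 and -1.71 at 3 h and -4.24 and -3.86 at 6 h.

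The hepatocyte markers fell over the same hours as Socs3. The library M2 at 18 h that lacked Socs3 also had the lowest hepatocyte marker sum, 4.03 CPM against 37.7 CPM in M1 and 152 CPM in M3. Between M1 and M3 of 18 h the order was opposite, with Socs3 at 68.2 CPM in M1 and 53.6 CPM in M3. It was also opposite at 0 h. There M3 had the higher hepatocyte sum (6734 against 3077 CPM in M2) and the lower Socs3 (1284 against 1749.9 CPM). Across the 19 samples the 2 genes with the pattern most like that of Socs3 were Trf and Alb, which encode transferrin and albumin. Fos and Junb, immediate early genes that handling and dissociation of cells are known to induce, also had their highest levels at 0 h: Fos had a mean of 2732 ± 637 CPM (SD, n = 2) at 0 h and 278 ± 42.8 CPM (n = 3) at 3 h, and Junb 3519 ± 547 and 2129 ± 149 CPM. Whether carried-over hepatocyte RNA or the isolation of the cells had a part in the level of Socs3 at 0 h was not tested.

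**Figure D3:**
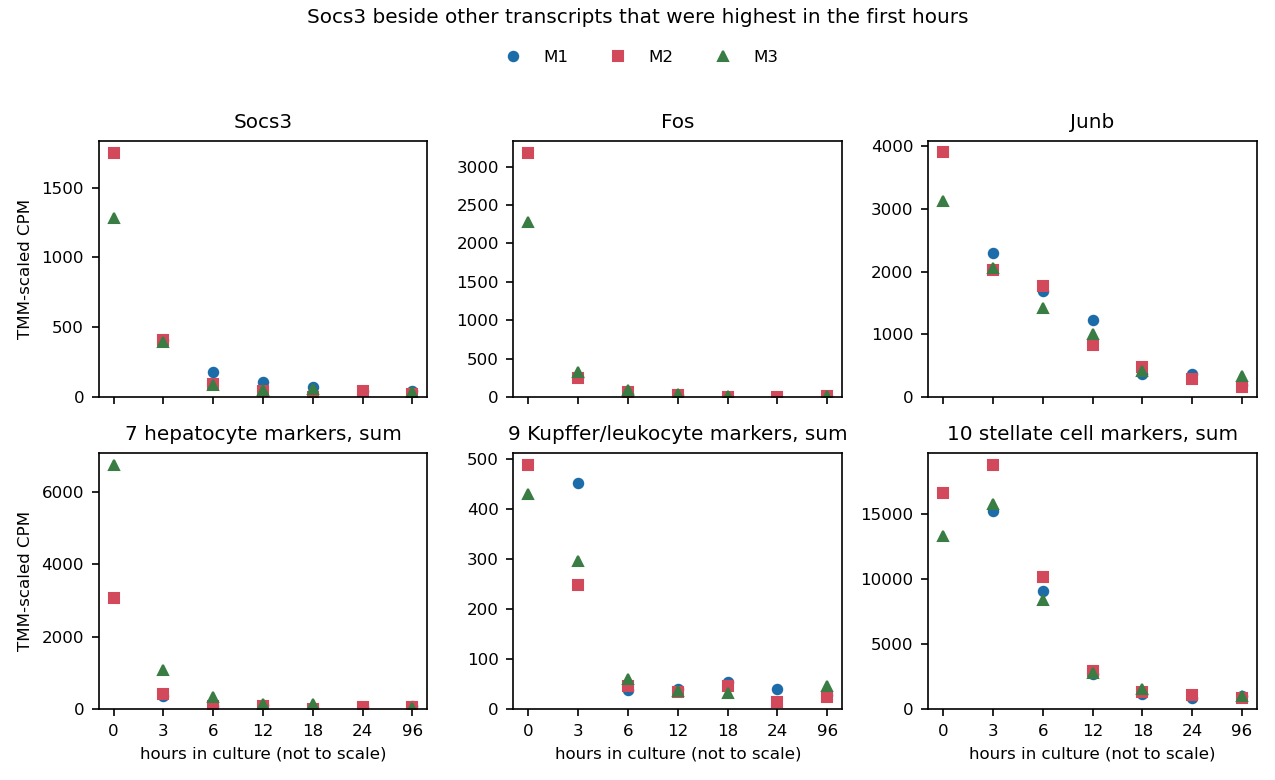
TMM-scaled CPM of Socs3, Fos and Junb (top) and summed CPM of 7 hepatocyte, 9 Kupffer cell and leukocyte and 10 stellate cell markers (bottom) by hours in culture, with 1 point per sample and axes from 0. The samples of 0 h stand highest for Socs3, Fos, Junb and the hepatocyte sum, whereas the stellate cell sum overlaps between 3 h and 0 h.

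Promoter sequence was read for the genes with an entry in RefSeq's tables (GRCm38.p6), from 250 bases before to 50 bases after each start. Such windows were found for 7 of the 9 genes, 8 windows in all. The STAT motif TTCNNNGAA, a palindrome read on both strands, was found in 1 of them, that of Socs3, and in 8.3% of all 32851 windows. The C/EBP motif TTGCNNAA was in 0 of the 8 (10.8% of all windows) and the AP-1 motif TGANTCA in 1, that of Osmr (7.81%). The part of the Socs3 window that holds no annotated exon (chr11:117969452-117969616, minus strand; a noncoding transcript of Socs3 in GENCODE starts further upstream and has its intron here) is shown because it holds the STAT motif, in capitals, and that of Stat3 (chr11:100939541-100939790, minus strand) because Stat3 rose at 3 h and holds none of the 3 motifs there. Both are written 5′ to 3′ in the direction of transcription.
Socs3: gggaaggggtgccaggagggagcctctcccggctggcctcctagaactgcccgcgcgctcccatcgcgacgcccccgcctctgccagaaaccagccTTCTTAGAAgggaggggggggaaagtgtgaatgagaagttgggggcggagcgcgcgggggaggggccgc
Stat3: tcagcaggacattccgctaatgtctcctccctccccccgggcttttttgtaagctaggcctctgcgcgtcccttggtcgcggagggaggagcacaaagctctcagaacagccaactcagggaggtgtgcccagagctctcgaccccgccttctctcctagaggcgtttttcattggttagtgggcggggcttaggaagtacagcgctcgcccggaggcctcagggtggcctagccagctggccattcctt
The motif of Socs3 lies 154 to 146 bases before the RefSeq start, which is 180 bases before the first exon of the protein-coding transcript in GENCODE. The window ends 50 bases after the RefSeq start, so the bases from there to that exon were not searched for motifs. A match describes letters in a window and not a bound site.

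Socs1 (chr16:10782240-10785536, minus strand), the inhibitor that acts on the kinases themselves and is known best for interferon signalling, had at most 20.7 CPM from 6 h on. It had 101 and 46.6 CPM at 0 h, 33.3 to 52.3 CPM at 3 h and 4.07 to 20.7 CPM at 6 and 12 h. At 18 h, 2 of the 3 samples were at 0 counts and the third had 16 counts (2.98 CPM), and 1 sample each was at 0 counts at 24 and at 96 h. From 0 h to 18 h it fell by 6.17 ± 2.05 on the log2 scale (edgeR adjusted p = 0.062), a value set by few reads. The call was lost without the 0 h sample M2 or without the 18 h samples M1 or M2, and in a fit of these 2 times alone (edgeR adjusted p = 0.105).

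Socs2 (chr10:95385362-95417180, minus strand), an inhibitor known for limiting growth hormone signalling through STAT5, rose instead. Its 2 uncultured samples, at 65.1 and 56.1 CPM, lay below all but 1 of the culture samples. The highest values were those of 12 h, at 218, 276 and 246 CPM, and the one low culture sample, with 31.6 CPM, was that of M1 at 18 h, beside 202 and 216 CPM in the others. The log2 fold change at 12 h was 2.02 ± 0.56 (edgeR adjusted p = 0.022), and the call needed both 0 h samples. At 96 h it was 1.52 ± 0.55, just outside the threshold (edgeR adjusted p = 0.106), and DESeq2 called it with 1.38 (DESeq2 adjusted p = 0.058). With the low 18 h sample left out, Socs2 was called at 3, 6, 18 and 96 h as well, for example at 96 h with 1.53 (edgeR adjusted p = 0.0026). The 3 suppressors thus did not share a direction: 1 was higher and 2 were lower at a called time.

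Cebpd (chr16:15887286-15891031, plus strand), the C/EBP factor that STAT3 is known to induce in acute inflammation, fell late. Its values were 959 and 536 CPM at 0 h and 1359, 1449 and 1741 CPM at 3 h. They were 1162, 609 and 973 CPM at 6 h, and 472, 237 and 378 CPM at 12 h. At 3 h all samples were above both uncultured samples, and from 12 h on all were below them. Samples of 18 h had 259, 62.8 and 178 CPM, those of 24 h 258 and 129 CPM, and those of 96 h 53.5, 74.0 and 42.7 CPM.

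The difference of Cebpd at 3 h, 1.02 ± 0.49 (log2, SE), was not called (edgeR adjusted p = 0.348). At 12 h it was -1.05 ± 0.47 (edgeR adjusted p = 0.163), and with the number block -1.29 and called (edgeR adjusted p = 0.079), but not with the date block (edgeR adjusted p = 0.1004). Against 0 h Cebpd fell by 2.17 ± 0.48 at 18 h (edgeR adjusted p = 0.0059), and its change was -3.72 ± 0.50 at 96 h (edgeR adjusted p = 1.2e-04). Between culture times it fell by 4.01 ± 0.49 from 6 to 96 h (edgeR adjusted p = 3.7e-05) and changed by -1.77 ± 0.48 from 24 to 96 h (edgeR adjusted p = 0.074), where 1.35% of all genes were lower. The last of these was lost when any of 5 single libraries was left out, with adjusted p up to 0.564, and the call at 24 h, -1.95 ± 0.54, without the 0 h or the 24 h sample M2. Cebpd lies over Spidr on the other strand of chromosome 16, and Spidr had 448 counts against 47075.

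Cebpb (chr2:167688915-167690418, plus strand), its relative in the acute phase response, changed less. The 2 uncultured samples, at 214 and 85.2 CPM, differed more from each other than most culture samples did from either. The mean was 169 ± 17.3 CPM (SD, n = 3) after 3 h, 230.0 ± 70.6 CPM (n = 3) after 12 h and 70.9 ± 1.84 CPM (n = 2) after 24 h, and only the samples of 24 h were separated from the time next to them in the order of means. Against 0 h its change at 24 h, -1.08 ± 0.37, was just outside the threshold (edgeR adjusted p = 0.102), and DESeq2 called it with -1.30 (DESeq2 adjusted p = 0.0080). From 12 to 96 h Cebpb fell by 1.08 ± 0.30 on the log2 scale (edgeR adjusted p = 0.030), one of 3 members with Osmr and Cebpd (6.57% of all genes were lower). That call was lost without the 12 h sample M3 or the 96 h sample M1, and DESeq2 gave -0.995, just under the 2-fold limit. Cebpb lies over Tmem189 on the other strand of chromosome 2, with 4197 counts against 14086, and whether the counting used strand is not given in the sources used here.

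Between neighbouring culture times the members were called rarely. They were 1 of 9 from 3 to 6 h (Stat3; 4.49% of all genes in either direction) and 1 of 9 from 24 to 96 h (Cebpd; 2.72%). From 6 to 12 h (1.84%), 12 to 18 h (0.225%) and 18 to 24 h (0.0396%), edgeR called 0 members. In those 3 steps the unadjusted edgeR p was under 0.05 for Lifr, Stat3 and Cebpd, for Osmr, Stat3, Cebpb and Cebpd, and for Osmr, in that order, and DESeq2 called 2, 1 and 0 members.

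The other genes of the pathway were described with lists chosen by role, likewise with earlier results of these data known. Of the gp130 cytokines, 4 of 10 passed the filter and 2 were called, both higher and both at each of the 6 culture times. Of all genes tested, 12.8% were called higher at 1 or more times. Il11, which signals through gp130 with its own receptor, had 1.00 and 4.01 CPM at 0 h and a mean of 236 ± 16.1 CPM (SD, n = 3) at 12 h, a log2 difference of 6.66 ± 0.74 (edgeR adjusted p = 1.2e-05). Lif, the ligand of LIFR with gp130, had 0 counts in both samples at 0 h and reached a mean of 123 ± 49.0 CPM (n = 3) after 12 h, which is at least 109-fold higher when 0 h is set to a floor of 3 counts per library (edgeR adjusted p = 0.0069). At 24 h the sample M1 had 86 counts of Lif (18.4 CPM) and M2 had 0, so the call of Lif at that time rests on 1 sample. From 12 to 96 h Il11 fell by 3.62 ± 0.51 (edgeR adjusted p = 1.8e-04), to 19.2 ± 6.25 CPM. The median log2 change of the 4 cytokines at 12 h was 5.10 with genes at 0 counts set to their bounds and 7.82 as fitted, beside 0 over all genes. At 0 h the means of these 4 were between 0 and 2.50 CPM, so they passed the filter through their culture samples. Calls in the rising direction and a positive median were thereby favoured in advance, and both are descriptions only. Osm, Cntf, Ctf1, Il27 and Ebi3 were among those that did not pass the filter.

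Among the other receptor chains, 4 of 5 were tested and 1 was called at 1 or more times, where 26.9% of all genes were. That was Il11ra1 at 18 h, with -3.07 ± 1.04 (log2, SE, edgeR adjusted p = 0.068). It has a near-identical copy, Il11ra2, so its counts are uncertain, and the call was lost with the number block (edgeR adjusted p = 0.101). Il6ra, the interleukin-6 receptor, stayed uncalled, with means between 22.4 and 50.8 CPM. Of the kinases and other STATs, 9 of 10 were tested, and 2 were higher and 2 lower at 1 or more times (12.8% and 14.7% of all genes). Jak1 and Jak2, which are among the kinases that gp130 binds, were higher at 3 h by 1.09 ± 0.20 (edgeR adjusted p = 0.0038) and 2.33 ± 0.37 (edgeR adjusted p = 9.9e-04). Jak2 had 61.5 ± 5.88 CPM (SD, n = 2) at 0 h, 309.8 ± 48.0 CPM at 3 h and 37.0 ± 8.09 CPM at 96 h (n = 3 each), so that its 96 h samples all lay below those of 0 h.

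Jak3, the kinase of lymphocyte cytokine receptors, had 54.1 and 0 CPM in the 2 samples at 0 h. At 3 h its samples had 17.2, 10.5 and 4.79 CPM, and from 6 h on it had 0 counts in every library. Its mean at 0 h was at least 50.6-fold higher than the floor at 12 h (edgeR adjusted p = 0.080), but that rests on 1 sample, and the call was lost with the number block (edgeR adjusted p = 0.254) and with the date block (edgeR adjusted p = 0.225). The Kupffer cell and leukocyte markers fell over the same hours, and their part in the values of Jak3 was not tested.

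Of the other negative regulators, 12 of 13 were tested, with 2 higher and 1 lower at 1 or more times (12.8% and 14.7% of all genes). Socs5, with a mean of 13.3 ± 3.89 CPM (SD, n = 2) at 0 h and 124 ± 31.2 CPM (n = 3) at 12 h, rose by 3.22 ± 0.51 (edgeR adjusted p = 3.4e-04). Ptpn1, a phosphatase that acts on Janus kinases, was higher at 3 h by 1.49 ± 0.25 (edgeR adjusted p = 0.0015), and fell from 3 to 6 h by 1.46 ± 0.21 (edgeR adjusted p = 0.0013), over the hours in which Stat3 rose and fell. Pias1, of the protein inhibitors of activated STATs, changed at 96 h by -1.81 ± 0.49 (edgeR adjusted p = 0.029). The other C/EBP genes were listed by name and not by type of protein, and 4 of 5 were tested. Cebpz was higher at 6 h by 2.04 ± 0.25 (edgeR adjusted p = 5.4e-05), and Ddit3, the C/EBP homologous protein of the stress response, was higher at 3 h by 2.43 ± 0.41 (edgeR adjusted p = 0.0021) and changed at 96 h by -2.12 ± 0.38 (edgeR adjusted p = 0.0016). From 12 to 96 h, 4 of these 4 genes were lower (6.57% of all genes), with a median log2 change of -2.79 beside 0.09 over all genes.

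Of 18 genes known as STAT3 targets in other cells (Bcl3, Junb, Pim1, Mcl1, Bcl2l1, Ccnd1, Myc, Fos, Timp1, Icam1, Vegfa, Hif1a, Il4ra, Lcn2, Saa3, Lrg1, Lbp and Serpina3n), 16 were tested. At 1 or more times 6 were called higher and 4 lower, where 12.8% and 14.7% of all genes were. At 3 h, where Stat3 peaked, 3 were higher and 2 lower (4.19% and 1.39% of all genes), with a median log2 change of 0.81 beside 0 over all genes. Of the 16, 6 had their highest mean at 3 h as Stat3 did (Pim1, Hif1a, Bcl3, Icam1, Il4ra and Mcl1), 3 at 0 h and the others after 3 h. The share of all tested genes with their highest mean at 3 h was not computed, so these numbers are descriptions only. Among the 6 highest at 3 h, Pim1, a kinase of cell survival, was called at 3 h with 4.06 ± 1.098 (log2, SE, edgeR adjusted p = 0.046). So was Hif1a, a factor of the response to low oxygen, with 2.01 ± 0.37 (edgeR adjusted p = 0.0039). The other 4 were not called there (edgeR adjusted p from 0.113 for Bcl3 to 0.254 for Il4ra). The 3 genes with the smallest adjusted p in the rising direction had their highest mean after 3 h. Myc, a driver of growth, was higher at 12 h by 4.28 ± 0.84 (edgeR adjusted p = 0.0021), Vegfa, an angiogenic factor, at 12 h by 2.73 ± 0.55 (edgeR adjusted p = 0.0027), and Bcl2l1, an inhibitor of apoptosis, at 96 h by 2.63 ± 0.52 (edgeR adjusted p = 0.0035). In the falling direction were Fos, with -9.03 ± 0.44 at 18 h (edgeR adjusted p = 5.5e-09), Junb, with -3.95 ± 0.27 at 96 h (edgeR adjusted p = 1.5e-07), and Ccnd1, a cyclin of the entry into the cell cycle, with -1.63 ± 0.36 at 6 h (edgeR adjusted p = 0.0076).

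**Figure D4:**
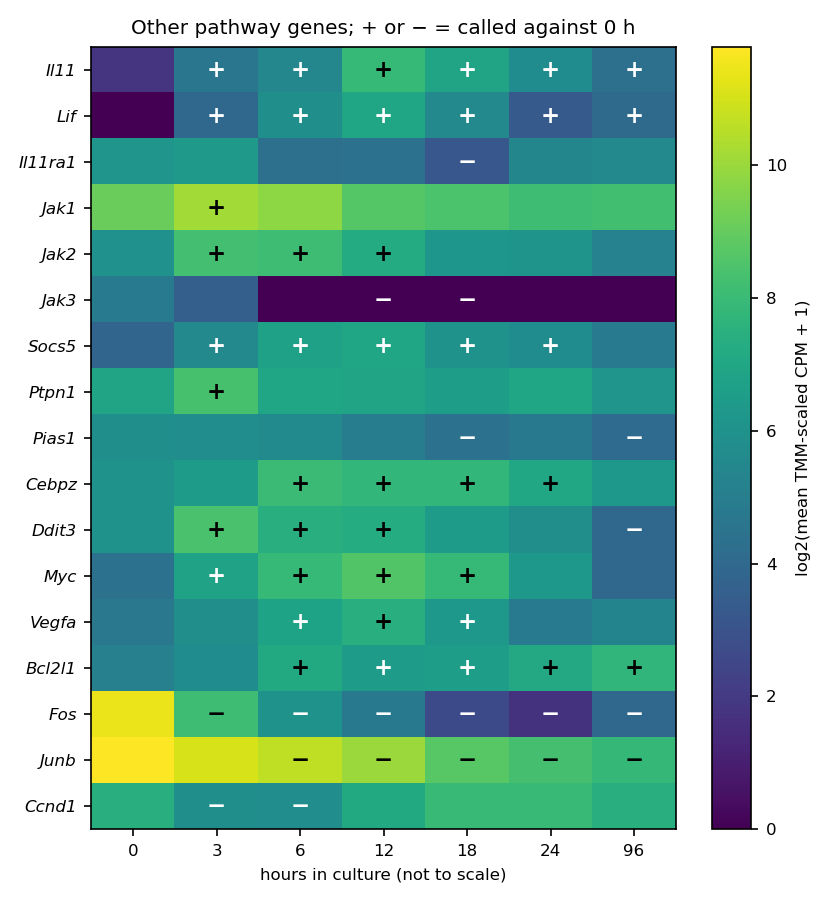
Mean level, as log2(TMM-scaled CPM + 1), of the named genes of the pathway lists (rows) by hours in culture (columns), with + and − where the gene was called higher or lower than at 0 h. Il11 and Lif carry + at all 6 culture times, Jak1 and Ptpn1 at 3 h alone, and Fos − at all 6. The + of Lif at 24 h rests on the sample M1 alone, as M2 had 0 counts.

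For each member, the 2 genes with the most similar pattern were taken by Pearson r of log2 CPM over the 19 samples, among the 8577 tested genes that averaged 10 CPM or more. These r share the same libraries and the same time course and are descriptions. Osmr was most like Errfi1, a feedback inhibitor of the epidermal growth factor receptor (r = 0.945), and Nfkb1, a subunit of NF-κB (r = 0.939). Errfi1 had a mean of 157 CPM at 0 h, 1899 CPM at 6 h and 139 CPM at 96 h, against 54.5, 369.5 and 65.7 CPM for Osmr. Stat3 was most like Gna13 (r = 0.900), a G protein subunit, and Csrnp1 (r = 0.878). Cebpd was most like Ddx5, an RNA helicase (r = 0.956), and H2-K1, a class I histocompatibility gene (r = 0.946).

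Socs3 was most like Trf (r = 0.946) and Alb (r = 0.927), both made in bulk by hepatocytes. Alb had a mean of 3123 CPM at 0 h, 360.2 CPM at 3 h and 21.2 CPM at 96 h, and Trf 673, 144 and 21.5 CPM. Il6st was most like Pde4b, a cyclic AMP phosphodiesterase (r = 0.925), and Parp14 (r = 0.899). The r of the remaining members were lower, at 0.851 and 0.844 for Lifr with Mbnl1 and Fxyd1, 0.860 and 0.849 for Socs1 with Angptl2 and Pias1, 0.876 and 0.814 for Socs2 with Khdrbs3 and Anxa5, and 0.816 and 0.812 for Cebpb with Herpud1 and Zcchc3.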

How the data were processed

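RNASeq was measured in HSCs at 7 times, in 19 samples. The authors deposited raw counts per gene, whole numbers without normalization, from QuantSeq 3′ FWD libraries. Per the labels and the study's methods, STAR placed the single-end reads on GRCm38.p6 and StringTie assembled genes and transcripts. The counting tool and its strand setting are not given in the sources used here. Times and the numbers M1, M2 and M3 came from the labels, which give M1 and M3 one isolation date and M2 another.

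Counts were analysed in R 4.3.3 with edgeR 4.0.16 (filterByExpr defaults, TMM, quasi-likelihood F test, all samples in one fit on time, Benjamini-Hochberg adjustment over 15138 genes). The fit was tested on simulated data. DESeq2 1.42.0 was an alternative, beside scaling by library size, no filter, separate fits, thinning to 2073171 counts and leaving out each library. Figures were drawn with matplotlib 3.10.9. Coordinates follow GENCODE for GRCm38, and 55141 genes had a symbol. The floors cover counting error only. Each SE comes from the quasi-likelihood fit and includes the estimated spread between samples, and each SD is the spread between samples of one time. Nothing states what M stands for or that M1 to M3 were separate animals, so p-values measure the spread between these samples.

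Same-numbered samples share an isolation date by the labels, so the number was also used as a block and, as an alternative chosen after seeing the data, so was the date. Deviations from the group means correlated with a mean r of 0.014 over 51 pairs of the same number, -0.016 over 31 pairs of other numbers of one date and -0.0031 over 72 pairs of other dates. Blocked values are printed where they changed a call that was compared, and pathway genes were compared only at their smallest-p comparison in each direction.

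The members and lists were chosen with earlier results of these data known. Named are all members, from each pathway list the called genes with the smallest adjusted p (at most 3 in each direction), the 2 genes most like each member, and markers beside a result. Other listed genes enter the counts only, and some results for listed genes are not reported here. Il6ra and the 6 STAT3 targets highest at 3 h were named after their values were seen.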

Additional observations from a re-analysis of the deposited data

How the results depend on the processing

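Groups of 2 to 3 libraries and a floor of up to 1.503 CPM at 0 h limit what can be shown for Socs1, Jak3 and other genes of few counts. The calls for Osmr at 3 to 18 h, Stat3 at 3 h, Lifr at 12, 18 and 96 h, Socs3 at 12 and 96 h and Cebpd at 18 and 96 h held under all 7 other settings and without any single library. Settings were compared for the members, and for each named pathway gene only at its smallest-p comparison in each direction. Other printed calls of pathway genes were not compared. With the number M1 to M3 as a replicate block, 5 members were called at 12 h and 4 at 24 h. Osmr at 24 h (1.03) and Cebpd at 12 h (-1.29) were gained, Il11ra1 at 18 h (-3.07) and Jak3 at 12 h (-9.31) were lost, and no other compared call changed. With the isolation date as a block, chosen after seeing the data, Jak3 at 12 h (-9.42) was the only one of the compared calls that changed. DESeq2 called 2 members from 6 to 12 h, 1 from 12 to 18 h and 16 other pathway genes at 96 h, against 0, 0 and 10. Separate fits of the 2 groups called 5 members at 3 h, 4 at 6 h, 3 at 18 h, 2 from 3 to 6 h, 1 from 6 to 12 h and 4 from 6 to 96 h, against 2, 2, 5, 1, 0 and 2. Of values that were not called, Stat3 turned at 24 h with scaling by library size (0.081 against -0.184) and at 12 h with DESeq2 (-0.072 against 0.149). The cause was not tested.

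Without single libraries, members called lay between 1 and 3 at 6 h (1 without the 6 h sample M3), 0 and 4 at 24 h (0 without the 24 h sample M2, and 1 without that of M1 or the 0 h sample M2), 1 and 2 from 3 to 6 h (2 without the 18 h sample M2), and 0 and 1 in the steps from 6 to 12 h, 12 to 18 h and 24 to 96 h. The 1 from 6 to 12 h came without the 3 h or 18 h sample M2 or the 12 h sample M1, and that from 12 to 18 h without either 0 h sample. The 0 from 24 to 96 h came without the 3 h sample M2, either 24 h sample, or the 96 h samples M1 or M3. Other pathway genes lay between 7 and 13 at 3 h (12 with all libraries, 7 without the 0 h sample M3), and, each lowest without the 0 h sample M2, 8 and 17 at 18 h (15) and 6 and 11 at 96 h (10). Uncalled log2 changes that turned in some of these fits were Stat3 at 12 h (-0.14 to 0.49) and 24 h (-0.50 to 0.18), Cebpb at 3 h (-0.35 to 1.02), 6 h (-0.090 to 1.26), 18 h (-1.13 to 0.18) and 96 h (-0.98 to 0.35), Cebpd at 6 h (-0.10 to 0.75), Osmr at 96 h (-0.014 to 0.618) and Il6st at 6 h (-0.282 to 0.0039). Scaling by library size moved the median of all genes to 0.24 at 24 h and 0.22 at 96 h. Over all genes DESeq2 called 1595 at 3 h, 2667 at 6 h, 2322 at 24 h, 1395 from 3 to 6 h, 923 from 6 to 12 h, 467 from 12 to 18 h, 241 from 18 to 24 h and 887 from 24 to 96 h, against 844, 1715, 1440, 680, 278, 34, 6 and 411. The block called 2 from 18 to 24 h, and separate fits 7 from 12 to 18 h, 0 from 18 to 24 h and 643 from 24 to 96 h.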
